A study of Rattus norvegicus with 27 samples.

Results

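A set of 9 genes that mark cerebellar astrocytes were followed in the interpositus (IP) nucleus of adult rats. The genes were Gdf10, Hopx and Slc1a3, known from Bergmann glia, Gfap and Aqp4, known from fibrous astrocytes, and Slc1a2, S100b, Aldoc and Gja1, which both kinds of cell use. They were chosen by symbol, and 9 of 9 were found among the 17321 genes of the count table. All 9 were among the 12107 genes with enough counts to be tested. In the rn6 coordinates of the table, Gdf10 lies at chr16:10250508-10262383, Hopx at chr14:33354807-33362544, Slc1a3 at chr2:57860881-57935363, Gfap at chr10:90990762-90999435 and Aqp4 at chr18:6766009-6782757. Slc1a2 lies at chr3:92518679-92665731, S100b at chr20:13130636-13142856, Aldoc at chr10:65586504-65590093 and Gja1 at chr20:37876650-37889094. Counts are of reads on the exons of each gene.

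The IP nucleus is one of the deep nuclei through which the cerebellar cortex reaches the rest of the brain. Tissue came from Long-Evans rats at postnatal day 70, and messenger RNA was sequenced from 27 animals. Normally reared rats (NT, no treatment) comprised 5 females and 7 males, and rats reared with limited bedding (LB) from postnatal day 2 to 9 comprised 7 females and 8 males. All litters had been cross-fostered, and all rats were later weaned into cages of a single sex and a single treatment. Punches 2 mm wide were taken over 3 sections of 1 mm, which limits the samples as a model of the nucleus, since such a punch can also hold white matter, granule cell layer and the edge of the brain. Animals are named here by group and sample title. Titles fall into 10 sets that share all but the last digit, each with 2 to 4 animals of a single group. NT females fall in the sets of 1011 and 2011, and NT males in those of 3111, 4111 and 6111. LB females fall in the sets of 5021 and 8021, and LB males in those of 121, 7121 and 9121. Each group thus rests on few sets. The labels do not say what a set is, so sets were used only as a block in an alternative fit. All other tests treated the rats as independent.

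Astrocytes supply neurons with energy substrates, clear potassium and glutamate from the space around synapses, and cover blood vessels with their endfeet. In the cerebellum they take several forms. Bergmann glia have their cell bodies beside Purkinje cells and send fibres up through the molecular layer, where the transporter GLAST (Slc1a3) removes glutamate released onto Purkinje cells. Fibrous astrocytes of the white matter are rich in the filament protein GFAP, and the water channel aquaporin-4 (Aqp4) lies in endfeet. A punch of the deep nuclei would be expected to hold astrocytes of nucleus and white matter, and Bergmann glia only as far as the cortex was included.

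The start regions are shown of the 4 genes called in the sex difference described below and of Slc1a3, the other gene of Bergmann glia, which was not called. Gfap and S100b had the highest correlation of any pair, whereas the 3 Bergmann glia genes differed from one another. Each sequence is the stretch of 250 bases before the transcript start in the rat RefSeq annotation (build GRCr8), read 5′ to 3′ on the gene's strand, with every CG dinucleotide in capitals. For Slc1a3, which has 3 listed starts, the first is shown.
Gfap (chr10:88361662-88361911, minus strand): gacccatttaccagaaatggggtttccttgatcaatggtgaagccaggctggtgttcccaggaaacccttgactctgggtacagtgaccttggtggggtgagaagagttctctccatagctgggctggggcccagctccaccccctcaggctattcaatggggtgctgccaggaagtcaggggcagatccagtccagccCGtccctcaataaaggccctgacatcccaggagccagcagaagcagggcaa
S100b (chr20:12381082-12381331, minus strand): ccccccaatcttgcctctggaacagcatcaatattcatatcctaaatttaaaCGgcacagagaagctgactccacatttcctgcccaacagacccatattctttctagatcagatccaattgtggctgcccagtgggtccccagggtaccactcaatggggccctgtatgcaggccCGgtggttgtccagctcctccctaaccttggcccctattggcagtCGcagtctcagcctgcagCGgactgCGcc
Gdf10 (chr16:9243262-9243511, plus strand): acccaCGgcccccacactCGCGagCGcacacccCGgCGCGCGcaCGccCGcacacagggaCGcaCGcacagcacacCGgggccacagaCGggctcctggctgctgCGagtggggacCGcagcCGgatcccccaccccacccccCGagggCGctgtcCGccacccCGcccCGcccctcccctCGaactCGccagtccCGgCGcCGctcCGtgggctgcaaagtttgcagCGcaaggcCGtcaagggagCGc
Hopx (chr14:31429163-31429412, plus strand): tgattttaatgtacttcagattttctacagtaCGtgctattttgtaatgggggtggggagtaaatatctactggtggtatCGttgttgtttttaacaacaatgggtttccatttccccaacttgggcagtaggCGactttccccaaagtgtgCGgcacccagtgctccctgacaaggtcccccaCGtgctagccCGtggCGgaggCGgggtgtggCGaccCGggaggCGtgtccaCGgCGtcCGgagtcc
Slc1a3 (chr2:59557809-59558058, minus strand): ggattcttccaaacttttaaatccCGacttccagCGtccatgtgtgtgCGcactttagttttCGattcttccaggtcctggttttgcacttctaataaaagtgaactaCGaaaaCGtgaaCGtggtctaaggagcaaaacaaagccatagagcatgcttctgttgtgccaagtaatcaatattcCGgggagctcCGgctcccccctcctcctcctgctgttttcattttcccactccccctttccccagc
The Gfap window held 1 CG dinucleotide, and 7.8% of the 33469 rat promoter windows of the same length held fewer. The S100b window held 5, equal to the median of all windows. Gdf10 stood at the other end with 31, and 95.3% of windows held fewer, while Hopx held 14 and Slc1a3 held 9. Of all windows 92.2% held at least 1. The letters CG read the same on both strands, so each was counted once. These counts describe the sequence and were not tested against expression.

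Total counts per animal ranged from 11836684 to 24169170, with a median of 16034036. No 2 animals of a group matched (80 pairs compared, 0 identical, chi-square per degree of freedom of at least 8.49), so each was counted once. The Y-linked Eif2s3y had at least 516 counts in each male and at most 3 in each female, so the sexes matched their labels. Even the lowest member, Slc1a2, had at least 143 counts in every animal. Values below are in CPM, that is counts scaled to the library size after TMM normalization, so that animals of different depth can be compared. The test was the quasi-likelihood F test of edgeR, and a gene was called changed when its Benjamini-Hochberg adjusted p over all genes tested was under 0.05.

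The genes spanned a wide range of levels. Per kilobase of exon, the mean level over 27 rats was highest for Aldoc (1547 ± 352 CPM per kb, SD), a glycolytic aldolase of astrocytes and of bands of Purkinje cells. S100b, a calcium-binding protein of astrocytes that myelinating cells also express, followed at 1331 ± 384 CPM per kb. These neighbours overlapped, since Aldoc was the higher in 19 of 27 rats. Gfap came next at 314 ± 121 CPM per kb, Slc1a3 at 247 ± 64.8 and Aqp4 at 191 ± 59.5. S100b exceeded Gfap in 27 of 27 rats, whereas Gfap exceeded Slc1a3 in only 16 of 27, so that order was within the spread. Slc1a3 exceeded Aqp4 in 24 of 27.

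The lower members were Gja1, which encodes the gap junction protein connexin 43 (78.0 ± 23.1 CPM per kb), Hopx, a homeodomain-only protein (50.4 ± 13.3), Gdf10, a secreted ligand of the TGF-β family (38.1 ± 9.63), and Slc1a2, the glutamate transporter GLT-1 (17.5 ± 11.01). Gja1 exceeded Hopx in 27 of 27 rats and Hopx exceeded Gdf10 in 19 of 27. In the table Slc1a2 had only 6 merged exons with 1528 bases in all, spread over the region given above. Its level therefore depends on a short annotated part of the gene and its place at the bottom of the order is uncertain. No member shared exon bases with another gene.

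Members also differed in how much they varied. The SD of log2 CPM over the 27 rats was 0.71 for Slc1a2, 0.56 for Aqp4 and 0.49 for Gfap, against a median of 0.36 over all genes tested. Aldoc, at 0.31, and Gja1, at 0.33, varied less than that median. Slc1a2 ranged from 10.004 CPM in NT male 4111 to 80.7 CPM in NT male 6111, a ratio of 8.07 within a single group.

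**Figure D1:**
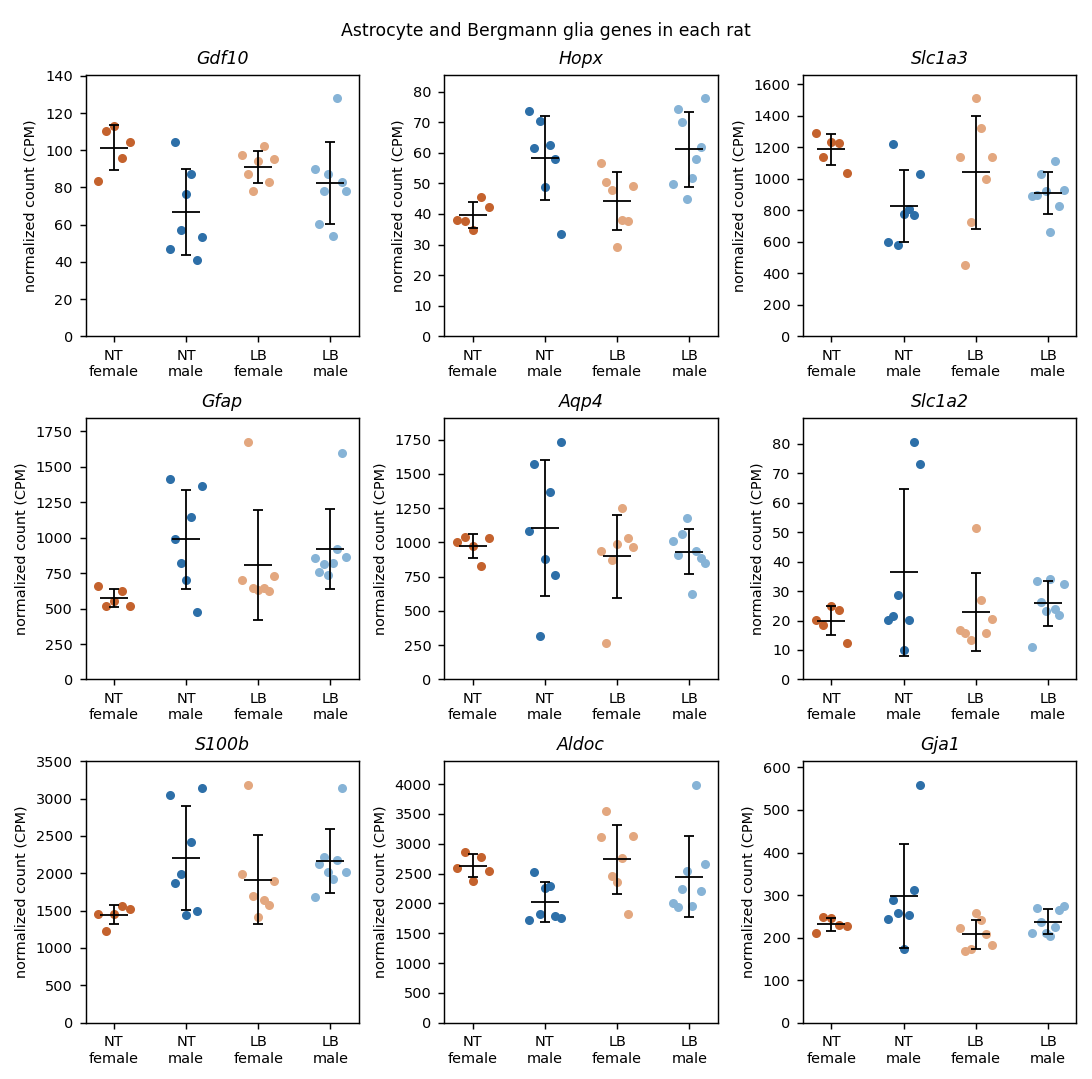
Normalized counts (CPM, vertical axis from 0) of the 9 genes in each rat, by group, with the group mean and SD as a black bar. NT males lie mostly above NT females for Hopx, Gfap and S100b and mostly below them for Gdf10, Slc1a3 and Aldoc, with overlap in every panel, and single LB rats stand far from their group for Gfap, Aqp4 and S100b.

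The first comparison asked whether males and females differed under normal rearing. Of the 9 members 4 were called, against 15.2% of all genes tested. Hopx, Gfap and S100b were higher in NT males and Gdf10 was lower, where 10.1% of all genes were called higher and 5.08% lower. In 0 of the 9 members did the NT groups separate fully, against 7.24% of all genes tested. The median absolute log2 difference of the members was 0.56, beside 0.28 over all genes tested.

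Gdf10 measured 83.5, 95.7, 104, 110 and 113 CPM in the 5 NT females. In the 7 NT males it measured 40.9, 47.2, 53.5, 57.3, 76.5, 87.3 and 105 CPM. The males other than 3112 and 4113, 5 of 7, lay below every female. The log2 difference, males minus females, was -0.60 (SE 0.193, adjusted p = 0.0367, edgeR).

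Hopx differed the other way, although it too is a gene of Bergmann glia. The NT females measured 34.8, 37.6, 37.9, 42.4 and 45.6 CPM. The males ran from 33.5 CPM in 6112 through a median of 61.5 to 73.7 CPM in 3111. Among the males 6 of 7 lay above every female and 1 lay below every female. The log2 difference was 0.56 (SE 0.176, adjusted p = 0.0356, edgeR).

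Slc1a3, the Bergmann glia transporter, measured 1038, 1137, 1226, 1234 and 1292 CPM in NT females. The NT males ran from 578 CPM in 3113 through a median of 773 to 1223 CPM in 3112. Although 6 of 7 males lay below every female, the log2 difference of -0.52 (SE 0.208) was not called (adjusted p = 0.0833, edgeR).

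Gfap had the largest log2 difference of the 4 called members. Its values in NT females were 516, 520, 554, 622 and 659 CPM. In NT males they were 477, 701, 818, 987, 1148, 1365 and 1411 CPM, with 6111 lowest and 3111 highest. Among the males 6 of 7 lay above every female. The log2 difference was 0.78 (SE 0.260, adjusted p = 0.0424, edgeR).

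Aqp4, the other gene of fibrous astrocytes, was not called. NT females measured 828.7, 971, 1003, 1033 and 1036 CPM, a narrow band. NT males spread on both sides of it, from 319 CPM in 3113 through a median of 1080 to 1735 CPM in 6112, with 4 above and 2 below every female. The log2 difference of 0.18 had a 95% interval from -0.43 to 0.78 (adjusted p = 0.696, edgeR).

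S100b measured 1229, 1454, 1461, 1521 and 1560 CPM in NT females. In NT males it ran from 1440 CPM in 4111 through a median of 1991 to 3148 CPM in 6112, and 5 of 7 males lay above every female. The log2 difference was 0.61 (SE 0.201, adjusted p = 0.0413, edgeR). The ratio of S100b to Gfap was 2.53 ± 0.278 (SD, n = 5) in NT females and 2.30 ± 0.409 (n = 7) in NT males.

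The other shared members were not called. Aldoc was lower in 6 of 7 NT males than in every female, with a log2 difference of -0.38 (SE 0.165, adjusted p = 0.111). Slc1a2 had the largest log2 difference of the 9, 0.87, but also the largest SE (0.413, adjusted p = 0.143), and only 3 of 7 males lay above every female. NT males 6111 and 6112, at 80.7 and 73.0 CPM, stood well above the others, the next being 3113 at 28.8 CPM. Gja1 differed by 0.36 (SE 0.182, adjusted p = 0.162), and 6112 at 559 CPM was far above the next male at 311.1 CPM.

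**Figure D2:**
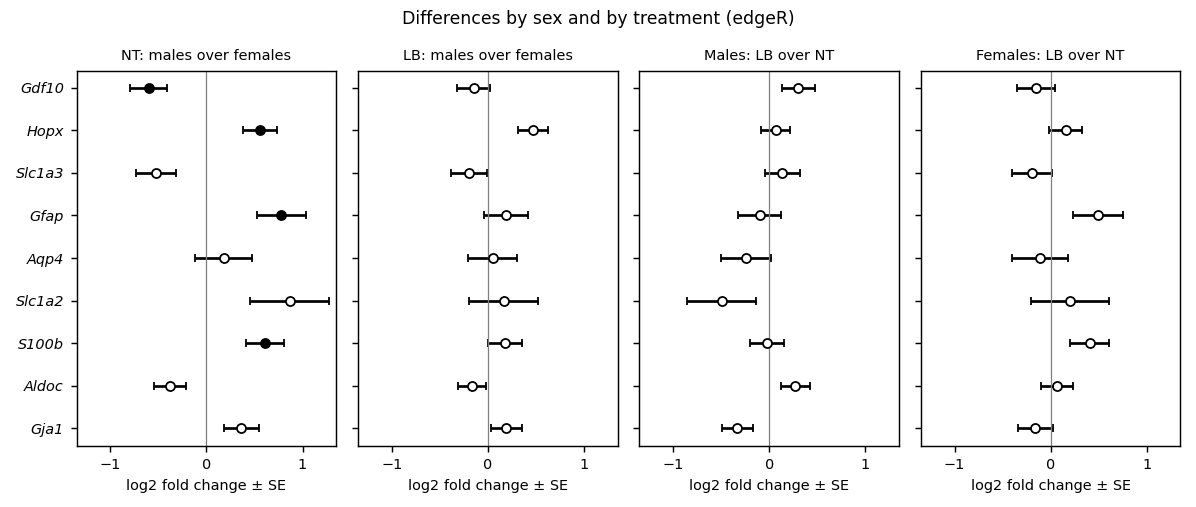
Log2 fold changes (horizontal axis, points with SE bars, edgeR) of the 9 genes in 4 comparisons, with filled points for genes past the threshold of 0.05 on the adjusted p. Filled points appear only in the left panel, for Gdf10, Hopx, Gfap and S100b, and the treatment panels hold none.

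With title sets as a random block in limma-voom (estimated correlation within a set 0.17), 0 of the 4 were called, as were 2 of all genes. Limma-voom without the block called 617 genes higher and 630 lower, and edgeR called 1840 in all. The 4 calls were also lost in fits with fewer animals. Leaving out any of the 5 NT females, or NT male 3111, left 0 of 9 members called, and leaving out NT male 3112 gave 5. The fits with 0 members called 590 to 1156 of all genes. Without 1 NT female the estimates stayed near those above. They ran from -0.66 to -0.56 for Gdf10, 0.51 to 0.61 for Hopx, 0.74 to 0.83 for Gfap and 0.55 to 0.64 for S100b. The directions of the 4 held in all 27 fits that each left out 1 animal. Over those fits the adjusted p ranged from 0.0094 to 0.0864 for Gdf10, from 0.0189 to 0.0890 for Hopx, from 0.0123 to 0.0910 for Gfap and from 0.0126 to 0.0974 for S100b. With only the NT groups in the fit, 2 of the 4 were called, Hopx (adjusted p = 0.0496) and Gfap (adjusted p = 0.0466).

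Markers of other cells moved with the same contrast. Oligodendrocyte markers, the myelin genes of the white matter, were higher in NT males for 10 of 10 genes, and their summed level ran from 7719 to 11865 CPM in NT females and from 11131 to 52675 CPM in NT males. Granule cell markers were lower for 5 of 9 and higher for 0 (summed 7925 to 8969 CPM in females, 2803 to 7932 CPM in males), and Purkinje cell markers were lower for 3 of 7. Deep nucleus neuron markers were higher for 3 of 8 and microglial markers for 5 of 9. Microglial sums ran from 105 to 134 CPM in females and from 124 to 271 CPM in males. Meningeal markers were higher for 2 of 8 tested, with sums of 194 to 293 and 302 to 793 CPM. The part of these other cells in the members' differences was not tested, and in bulk tissue fewer cells of a type and less RNA per cell cannot be told apart. Ependymal markers, from cells that can express several of the members, were higher for 2 of 2 tested, with sums of 3.72 to 5.14 CPM in females and 5.53 to 82.6 CPM in males, highest in 6112. Choroid plexus markers were higher for 3 of 4 tested, with sums of 9.57 to 76.3 CPM in females and 7.90 to 6448 CPM in males, highest in 4113. No marker of any list was at 0 in every rat, though some were at 0 in most, such as Otx2 in 23. The granule, Purkinje, deep nucleus and oligodendrocyte markers that were found had counts in every rat. Deep nucleus sums ran from 2373 to 2782 CPM in NT females and from 2226 to 5248 CPM in NT males, where 6112 was highest. Of the deep nucleus markers, Slc17a6 and Spp1 had medians of only 2.77 and 2.84 CPM, but reached 380 and 441 CPM in NT male 6112. The others of that list had medians from 20.8 to 1697 CPM. How much of the nucleus each punch held was not measured.

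When the marker score of another tissue element was added to the model as a covariate, 0 of the 9 members remained called in each case. Few of the 12107 genes tested did. With the deep nucleus minus granule score 2 were called higher and 1 lower, and with the oligodendrocyte score likewise 2 and 1. With the meningeal score 6 were called higher and 10 lower. With the oligodendrocyte score the sex difference in NT was 0.08 (SE 0.234) for Gfap, 0.04 (SE 0.173) for S100b, -0.54 (SE 0.259) for Gdf10 and 0.52 (SE 0.218) for Hopx. With the score of deep nucleus minus granule markers, Gdf10 was at -0.20 (SE 0.214), Gfap at 0.17 (SE 0.269) and S100b at 0.03 (SE 0.192) and Hopx at 0.56 (SE 0.229). The adjusted p of Hopx was 0.324 and 0.94 in these fits (0.0134 to 0.94 over all its alternatives). Scores and sex overlap in these animals. Without a covariate the SE was 0.193 for Gdf10, 0.176 for Hopx, 0.260 for Gfap and 0.201 for S100b. It was thus wider in both fits for Gdf10 and Hopx, but narrower in both for S100b. For Gfap it was narrower with the oligodendrocyte score and slightly wider with the other.

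A further measure ran across the animals. The length balance is the mean log2 level, centred over animals, of long genes (exons over 3338 bases, the upper quartile) minus that of short genes (under 1481 bases). It was 0.281 ± 0.095 (SD, n = 5) in NT females, -0.001 ± 0.220 (n = 7) in NT males, 0.028 ± 0.376 (n = 7) in LB females and -0.200 ± 0.156 (n = 8) in LB males. With it as a covariate, chosen after the data had been seen, Hopx in NT fell from 0.56 to 0.27 (SE 0.138), Slc1a3 came to -0.22 (SE 0.173) and Aqp4 to 0.56 (SE 0.271). In that fit 0 members were called, beside 764 genes called higher and 421 lower of the 12107 tested. Hopx has 1031 bases of exon, the shortest of the 9, and Aqp4 has 5116, the longest. Whether RNA quality contributed was not tested, since no value of it was used here.

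**Figure D3:**
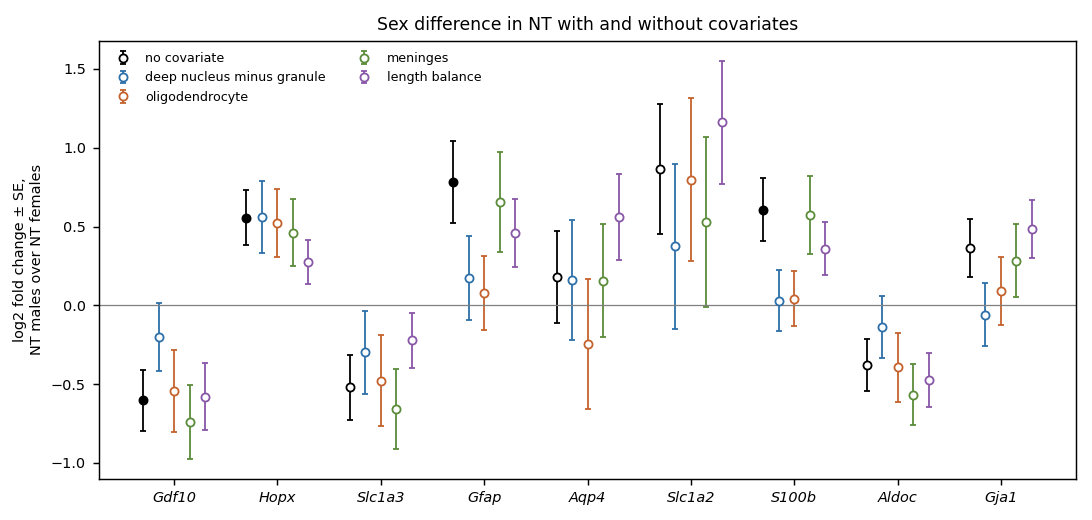
Sex difference in NT (log2 fold change of males over females, vertical axis, with SE bars) of each gene without a covariate and with each of 4 covariates, filled where the adjusted p was under 0.05. With the oligodendrocyte score Gfap lies at 0.08 and Hopx at 0.52, and no point with a covariate is filled.

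The same question was asked under limited bedding. None of the 9 members was called between LB males and LB females (edgeR, 0 of 9), nor with DESeq2 or limma-voom (0 of 9 each), against 0.248% of all genes tested. At an unadjusted p under 0.05 there was 1 of 9, Hopx, where 2053 of the 12107 genes tested reached that level. LB females measured from 29.2 to 56.7 CPM of Hopx (median 48.0) and LB males from 44.8 to 77.8 CPM (median 59.9), with 5 of 8 males above every female. Its log2 difference of 0.47 (SE 0.154, adjusted p = 0.134, edgeR) was close to the 0.56 of NT. Gfap, at 0.19 (95% interval -0.28 to 0.66), Gdf10, at -0.15 (-0.50 to 0.21), and S100b, at 0.18 (-0.18 to 0.54), had smaller estimates than in NT.

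Single LB rats weighed on these values. LB female 5022 had 1677 CPM of Gfap against 622 to 728 CPM in the other LB females, and 3185 CPM of S100b against 1408 to 1987. In the same rat Aqp4 was 269 CPM against 869 to 1249 in the others, and Slc1a3, at 450 CPM, was the lowest of all 27 animals. Its oligodendrocyte sum was 40386 CPM and its length balance -0.663, the highest and the lowest of its group. LB male 9122 had 1597 CPM of Gfap and 3144 CPM of S100b, likewise with the highest oligodendrocyte sum (43471 CPM) and the lowest length balance (-0.418) of its group. Without 5022 the LB sex difference of Gfap was 0.48, and 0 members were called, though 1059 of all genes were, in place of 30.

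Averaged over both rearing conditions, 4 of 9 members were called, against 29.3% of all genes tested (16.9% higher and 12.4% lower in males). Hopx was higher in males by 0.51 (SE 0.117, adjusted p = 0.0034), Gfap by 0.49 (SE 0.171, adjusted p = 0.0354) and S100b by 0.39 (SE 0.133, adjusted p = 0.0290), and Gdf10 was lower by a log2 difference of -0.37 (SE 0.129, adjusted p = 0.0316, edgeR). Hopx was the 1 member called in all 27 fits that each left out 1 animal, with adjusted p values from 0.0016 to 0.0085. Of 11 alternative settings, however, Hopx was called in only 8, and its estimate fell as low as 0.26. It was not called with the deep nucleus minus granule or the meningeal covariate. With title sets as a block 1 of 9 members was called.

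The second comparison asked whether limited bedding changed these genes. In males 0 of 9 members were called with edgeR, DESeq2 or limma-voom, beside 0% of all genes tested with edgeR. Gja1 was the 1 member with an unadjusted p under 0.05, a level that 1211 of the 12107 genes tested reached. It ran from 174 to 559 CPM (median 258) in NT males and from 205 to 275 CPM (median 230) in LB males, so the LB range lay inside the NT range. The log2 difference, LB minus NT, was -0.33 (SE 0.160, 95% interval -0.66 to -0.0024, adjusted p = 0.492), and -0.11 without NT male 6112. Gdf10 was at 0.30 (95% interval -0.05 to 0.66) and Aldoc at 0.27 (-0.03 to 0.58), both with adjusted p values above 0.5. Gdf10 came to 0.18 without NT male 6111 and Aldoc to 0.14 without LB male 9121. Gfap was at -0.10 (-0.57 to 0.36).

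In females 0 of 9 members were called with any of the 3 tools, beside 0.00826% of all genes tested, which was 1 gene, Itgb4. At an unadjusted p under 0.05 there were 0 members and 961 genes in all. The 2 largest estimates were those of Gfap, 0.49 (95% interval -0.04 to 1.02, adjusted p = 0.659), and S100b, 0.41 (-0.01 to 0.82, adjusted p = 0.625). Without LB female 5022 they were 0.21 and 0.24. For S100b 6 of 7 LB females lay above every NT female, whereas for Gfap 3 of 7 did. In the same contrast 0 of 10 oligodendrocyte markers were called and 4 of 10 had an unadjusted p under 0.05, with a median log2 difference of 0.48. Both intervals include differences of the size found between the sexes in NT.

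Averaged over the sexes, 0 of 9 members were called for treatment with any of the 3 tools, beside 0.00826% of all genes, again Itgb4, and 0 members but 1804 genes had an unadjusted p under 0.05. The adjusted p values of the members ran from 0.337 to 0.936. As for the interaction between the factors, it was called for 0 of 9 members and 0% of all genes with edgeR, and for 0 members with DESeq2 or limma-voom. At an unadjusted p under 0.05 there were 0 members and 570 genes, and the smallest p of a member was 0.0893 for Gdf10 (edgeR) with an interaction of 0.46 (95% interval -0.08 to 0.99). The sex differences of NT and LB are thus not shown to differ for any member, although only the first passed the threshold.

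The genes of Bergmann glia were then set against those of fibrous astrocytes within each rat. An index was taken as the mean log2(CPM + 0.5) of Gdf10, Hopx and Slc1a3 minus the mean of Gfap and Aqp4, as a description with no test. It was -2.15 ± 0.115 (SD, n = 5) in NT females, -2.74 ± 0.584 (n = 7) in NT males, -2.33 ± 0.113 (n = 7) in LB females and -2.47 ± 0.215 (n = 8) in LB males. NT males spread most, from -3.64 in 6112 to -1.94 in 3113, which were the lowest and the highest of all 27 rats. Of the NT males 5 lay below every NT female and 1 above. The male minus female difference was -0.59 in NT and -0.14 in LB, and the LB minus NT difference was 0.27 in males and -0.19 in females. The index can hide opposite moves within a class. In 3113 Aqp4 (319 CPM) and Slc1a3 (578 CPM) were both the lowest of the NT males. Its Gdf10 (57.3 CPM) lay below every NT female and its Hopx (70.3 CPM) above. LB female 5022, with the highest Gfap and the lowest Aqp4 of all rats, had an index of -2.42.

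**Figure D4:**
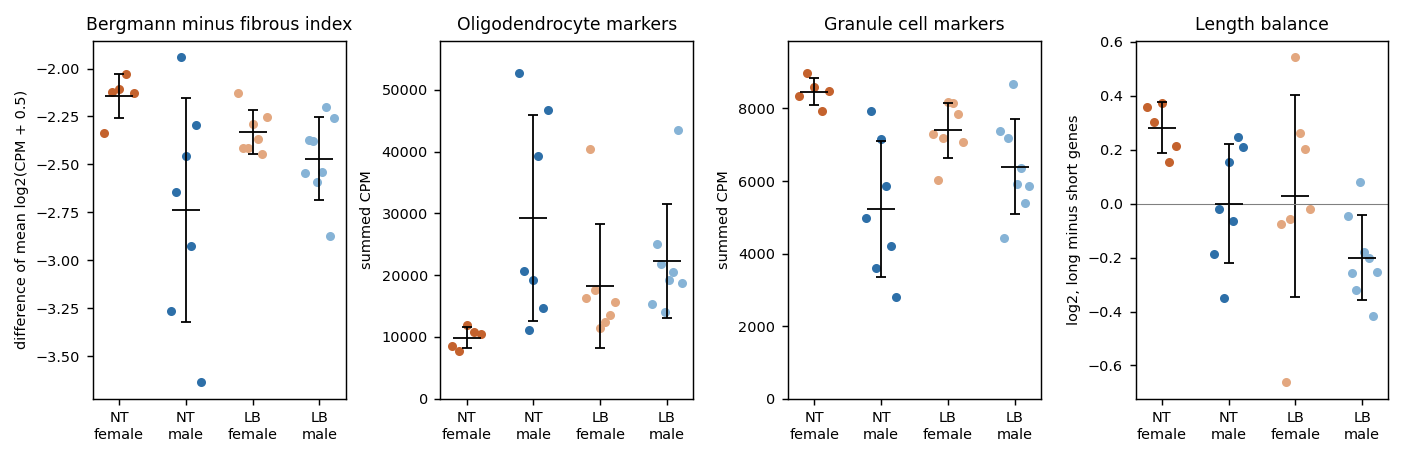
Bergmann minus fibrous index, summed oligodendrocyte markers, summed granule cell markers and length balance in each rat by group, with mean and SD in black. The NT males have the widest spread of the index (-3.64 to -1.94) and of both marker sums, and LB female 5022 and LB male 9122 stand out from their groups with 40386 and 43471 CPM of oligodendrocyte markers.

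Ratios of CPM between single genes were also taken in each rat, as a description with no test. Gfap was 5.79 ± 1.38 times Gdf10 in NT females, 16.2 ± 8.20 in NT males, 8.97 ± 4.56 in LB females and 11.7 ± 3.95 in LB males (SD). In NT the ratio ran from 4.73 to 7.89 in females and from 9.17 to 29.9 in males, so these ranges did not overlap. Gfap over Slc1a3 also separated the NT groups, with 0.449 to 0.510 in females and 0.619 to 2.35 in males. The ratio of Aqp4 to Slc1a3 did not, with 0.676 to 0.995 in females and 0.552 to 1.80 in males. Nor did Gfap over Aqp4, both of the fibrous class, with 0.499 to 0.750 in females and 0.626 to 2.56 in males. Hopx over Gdf10, both genes of Bergmann glia, separated the NT groups as well, with 0.307 to 0.477 in females and 0.588 to 1.56 in males, so separation was not particular to pairs that cross the classes. Between LB males and females the ranges of all these ratios overlapped. How many other pairs of genes separate the NT groups was not counted. Among single genes tested, which are not pairs, 7.24% separated them. The ratios above that separated the NT groups each set a gene with a positive NT estimate over a gene with a negative one. They are therefore not independent of the single-gene differences already described.

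Across the 27 rats the index genes did not form 2 blocs. Among the Bergmann glia genes Gdf10 and Slc1a3 were positively correlated (Pearson r = 0.58, permutation p = 0.00292, adjusted over 10 pairs 0.0146, and Spearman rho = 0.69, permutation p = 6e-05, adjusted 0.0006). Without NT males 6111 and 3111, the 2 rats farthest from the median of Gdf10, r was 0.52. Hopx and Slc1a3 were inversely related (r = -0.50, permutation p = 0.0063, adjusted 0.0210, and rho = -0.55, permutation p = 0.00384, adjusted 0.0128), with r = -0.46 without LB female 8021 and LB male 9123. With group means removed, as a check within groups, r was 0.44 (adjusted permutation p = 0.107) for the first pair and -0.37 (adjusted permutation p = 0.119) for the second, so neither held within groups after adjustment. Hopx and Gfap, of different classes, rose together by rank (rho = 0.57, permutation p = 0.00234, adjusted 0.0117). Their r of 0.39 did not pass (permutation p = 0.0419, adjusted 0.0838), nor did rho within groups (0.28, adjusted permutation p = 0.302).

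Gfap and Aqp4, the pair of the fibrous class, had no correlation past the threshold (r = -0.12, permutation p = 0.543, adjusted 0.543, and rho = 0.06, permutation p = 0.779, adjusted 0.779). Without 5022 and 9122 the value was 0.29. Aqp4 was instead related to Slc1a3 of the other class (r = 0.66, permutation p = 0.00066, adjusted 0.0066, and rho = 0.43, permutation p = 0.0264, adjusted 0.0528). Within groups r was 0.77 (adjusted permutation p = 0.0002). Much of the pooled value rested on LB female 5022 and NT male 3113, the rats with the lowest levels of both genes, since without them r was 0.32 and no longer passed. Slc1a3 and Gfap were inversely related (r = -0.50, permutation p = 0.0114, adjusted 0.0285, and rho = -0.45, permutation p = 0.0193, adjusted 0.0483), but not past the threshold within groups or without the same 2 rats. Length balance, which was lowest in 5022 and low in 3113 (-0.348), moved with these values, and its part in the correlations was not tested.

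Over all 36 pairs of the 9 members, a family added after the data had been seen, Gfap and S100b were the most alike. Their r was 0.92 and rho 0.86, both with a permutation p of 2e-05, the smallest that 100000 resamples can give, and 0.00036 after adjustment. Without 5022 and 9122 r was 0.89, and with group means removed it was 0.90. Gdf10 and Aldoc followed with r = 0.77 and rho = 0.75 (adjusted permutation p = 0.00036 for both), with r = 0.72 without 6111 and 3111 and 0.68 within groups. Slc1a2 and Gja1 had r = 0.73 and rho = 0.64 (adjusted permutation p = 0.00048 and 0.00414). NT males 6111 and 6112 were highest for both genes, and without them r was 0.58.

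**Figure D5:**
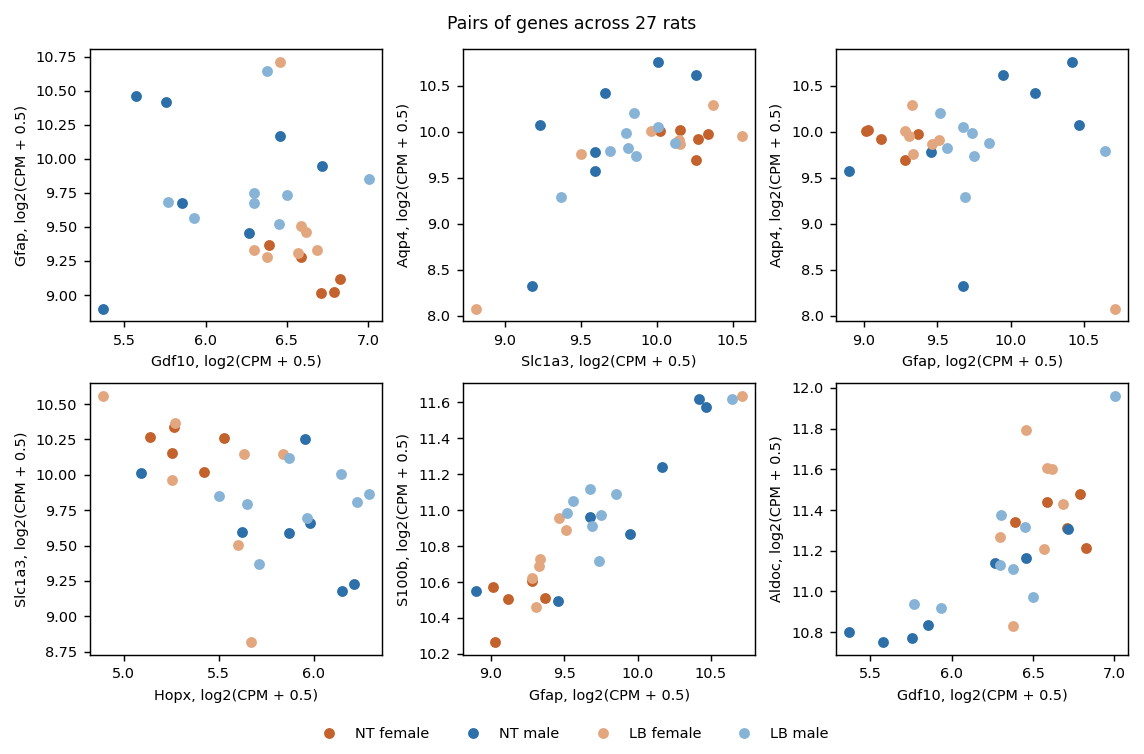
Pairs of genes across the 27 rats on log2(CPM + 0.5) axes, 1 point per rat, coloured by group. Gfap and S100b lie along a line (r = 0.92), Gdf10 and Aldoc rise together (r = 0.77), Gfap and Aqp4 do not (r = -0.12), and LB female 5022 lies at the lower left for Slc1a3 and Aqp4.

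The genes whose levels ran most like each member over the 27 rats were found among all genes tested, by Pearson r on the same scale. For Gdf10 they were Ppp1r17 (0.88), Spag5 (0.88) and Slc1a6 (0.86), of which Ppp1r17 and Slc1a6, the latter the glutamate transporter EAAT4, are known from Purkinje cells. For Aldoc they were Wnt3 (0.89), Slc1a6 (0.88) and Car7 (0.87). Slc1a6 itself was lower in NT males, at 154 ± 53.0 CPM (SD, n = 7) against 272 ± 23.3 CPM (n = 5) in NT females.

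For Gfap they were Litaf (0.94), Pea15 (0.94) and Mid1ip1 (0.93), and for S100b Pea15 (0.96), Plekhb1 (0.96) and Gltp (0.94), so Pea15, a phosphoprotein abundant in astrocytes, stood in both sets. For Hopx they were Naa20 (0.91), Tmsb4x (0.89) and S100a6 (0.88). The 50 genes most like Hopx had a median exon length of 857.5 bases, against 2197 over all genes tested. For Slc1a3 they were Stk17b (0.94), Copg2 (0.93) and Caprin1 (0.92), and for Aqp4 Yae1d1 (0.95), Add3 (0.95) and Gnai3 (0.94), with median lengths of 3100 and 3154.5 bases among the 50 most alike. Slc1a2 was nearest to Shc3 (0.92), Rgs6 (0.89) and Rorb (0.88), and Gja1 to Nnt (0.90), Dpysl2 (0.89) and Sod2 (0.88). These values describe the 27 libraries, which share composition and length balance.

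Other astrocyte genes gave the setting, and their counts in NT stand beside the 10.1% of all genes tested that were called higher in NT males and the 5.08% called lower. Of 20 further genes used by astrocytes in general, 4 were higher in NT males and 0 lower, with a median log2 difference of 0.24 beside 0.03 over all genes tested. They were Cldn10, a claudin (2.02, SE 0.399, adjusted p = 0.0096), Sox9, a transcription factor of astrocytes (0.51), Cst3, which encodes cystatin C (0.72), and Apoe, the lipid carrier apolipoprotein E (0.63). In LB 0 of 20 were called. Of 9 further genes known from Bergmann glia, Fabp7, a fatty acid binding protein, was higher in NT males by 1.24 (SE 0.243, adjusted p = 0.0096), and Ptch1, the receptor for Sonic hedgehog, was lower (-1.19, SE 0.297, adjusted p = 0.0148, edgeR). In LB 0 of 9 were called, with Fabp7 at 0.65 and Ptch1 at -0.87.

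Among 11 tested genes of reactive astrocytes 2 were higher in NT males, Id3, an inhibitor of differentiation factors (0.86), and Nes, the filament protein nestin (0.78), and 1 was lower, Stat3 (-0.34). Of 12 genes of glutamate transport and the glutamate-glutamine cycle only Slc1a6 was called (-0.82, SE 0.225, adjusted p = 0.0204, edgeR). Of 7 endfoot and potassium-buffering genes 0 were called, and 3 had an unadjusted p under 0.05.

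Of 8 connexins besides Gja1, 3 were higher in NT males. Among them Gjb1 (1.47) is known from oligodendrocytes, and Gjb2 (0.64) from astrocytes and meninges. Gjb2 was also the 1 gene of all these lists called between LB males and females (0.89, SE 0.171, adjusted p = 0.0153, edgeR), where 4 of 8 meningeal markers tested were higher in males too. No gene of these 6 lists was called in the treatment comparisons or the interaction, beside the background shares given above.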

How the data were processed

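Messenger RNA libraries (KAPA mRNA HyperPrep) were made from IP punches of 27 rats, and 3 further samples had been removed by the authors for low RNA integrity. Per the submitters' processing notes and the file headers, the authors aligned reads to rn6 with STAR 2.5.2b and counted them on genes with featureCounts (Subread 1.5.1). They deposited raw counts per gene with exon lengths. The annotation release, strand setting and treatment of multimapping reads are not given in the sources used here. Columns were matched to animals by sample title, and groups came from the labels. The series' design text gives 6 NT females, whereas the labels give 5.

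From the counts, genes were kept by filterByExpr of edgeR 4.0.16 (minimum count 10, minimum total 15) in R 4.3.3, which left 12107 of 17321. Libraries were scaled by TMM, and 1 robust quasi-likelihood model with 4 groups (prior count 0.125) was fitted to all animals, with Benjamini-Hochberg adjustment and a threshold of 0.05. The SE was the log2 fold change divided by the square root of F. CPM used TMM library sizes, logs a pseudocount of 0.5, and levels per kb the exon length of the table. Correlations used two-sided permutation tests with 100000 resamples. These shuffled values over all rats, across groups and title sets, and so treated the rats as independent. Total counts per animal were 11836684 to 24169170. The labels name each sample as a separate animal.

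The members and gene lists were chosen with earlier results of these data known. Named were the 9 members in every comparison, at most 4 genes of each further list by smallest p, and the 3 genes most like each member. Itgb4 and genes of the 36 added pairs were named after values were seen. Promoter sequences came from the rat RefSeq table (GRCr8), where 9 of 9 members matched. Its coordinates are not those of rn6. Alternatives were DESeq2 1.42.0, limma-voom (limma 3.58.1), other scalings and filters, marker score and length balance covariates, a block for title sets, fits of 2 groups and leaving out each animal. Values of some genes of the further lists are not reported here.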

Additional observations from a re-analysis of the deposited data

Results flagged for a closer look

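Within groups, the highest or lowest rat of a group was compared with its nearest neighbour by Dixon's ratio for the 9 members and the index. Of 40 groups checked 8 stood out, where chance gives about 5%, and the genes are not independent of one another. LB female 5022 stood out for Gfap (1677 CPM, next 728), S100b (3185 CPM, next 1987) and Aqp4 (269 CPM, next 869), high for the first pair and low for the last. LB male 9122 stood out for Gfap (1597 CPM, next 922) and S100b (3144 CPM, next 2223). Both rats had the highest oligodendrocyte marker sums and the lowest length balance of their groups, and the part of either in these values was not tested.

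Slc1a2 was high in LB female 8021 (51.4 CPM, next 27.1), which also had the highest length balance of all rats, 0.544. Aldoc was high in LB male 9121 (3989 CPM, next 2659), the rat with the highest Gdf10 as well (128 CPM). Gja1 was high in NT male 6112 (559 CPM, next 311.1), the rat with the highest Aqp4 and the lowest granule marker sum (2803 CPM). No member passed the threshold for the interaction of sex and treatment.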

How the results depend on the processing

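The sex difference in NT depended most on the model. Of the 9 members, 4 in the reported fit, 0 were called with the deep nucleus minus granule, oligodendrocyte, meningeal or length balance covariate or with title sets as a block, 1 with limma-voom and 2 with only the 2 groups. Over all genes, 1840 in that fit, the counts were 3, 3, 16, 1185 and 2 for the covariates and block in that order. The sex difference in LB, 30 genes, gave 17, 3 and 14 with the deep nucleus, meningeal and length covariates, 4 with the block and 408 with DESeq2, and 0 members throughout. For the sex difference over all animals, 4 members and 3546 genes, the counts were 0 and 6 (deep nucleus), 1 and 548 (oligodendrocyte), 0 and 3 (meninges) and 1 and 1029 (block), and 2090 genes with length balance. For treatment DESeq2 called 3 genes in males, 6 in females and 0 over all animals, and limma-voom 3 in females. The cause of these changes was not tested.

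Leaving out 1 animal at a time, the NT sex difference ranged from 0 to 5 members and 590 to 2735 genes. It was 0 members without NT female 1011, 1013, 2011, 2012 or 2013 or NT male 3111, 1 without 4113 or 6112 and 2 without 3113. The LB sex difference ranged from 12 to 1059 genes (the latter without 5022), the overall one from 1 to 6 members and 2805 to 5125 genes, treatment in females from 1 to 7 genes and overall from 1 to 330 (the highest of both without 8021), and the interaction from 0 to 1. The Bergmann minus fibrous index, NT males minus NT females, ranged from -0.72 to -0.44 and that of LB from -0.18 to -0.08.

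Among single members, signs turned only for values that were not called. In the NT sex difference these were Gja1 (-0.060, deep nucleus) and Aqp4 (-0.24, oligodendrocyte). In LB they were Aqp4 (-0.054, oligodendrocyte), Gfap (-0.067) and Slc1a2 (-0.39) with meninges, and Slc1a3 (0.14) and Gfap (-0.0089) with length balance. Over all animals it was Aqp4 (-0.15, oligodendrocyte). For treatment in males Gfap (0.21) and S100b (0.28) turned with deep nucleus, Gfap (0.092) and S100b (0.14) with oligodendrocyte, Hopx (-0.11) and Aqp4 (0.080) with length balance, and S100b with limma-voom (0.016) and the block (0.017). For treatment in females Aldoc turned with library size alone (-0.0080), and Hopx (-0.10), Slc1a3 (0.020), Aqp4 (0.18) and Aldoc (-0.038) with length balance. With 1 animal left out, the LB sex difference of Aqp4 ranged from -0.11 to 0.15. The treatment difference in males ranged from -0.26 to 0.0063 for Gfap, -0.13 to 0.082 for S100b and -0.033 to 0.13 for Hopx, and that in females from -0.21 to 0.046 for Aqp4, -0.012 to 0.14 for Aldoc and -0.12 to 0.30 for Slc1a2.

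With group means removed, r was 0.44 for Gdf10 and Slc1a3, -0.37 for Hopx and Slc1a3 and -0.34 for Slc1a3 and Gfap, each no longer past the threshold, and 0.11 in place of -0.20 for Gdf10 and Gfap. Without the 2 rats farthest from the median it was 0.38 for Hopx and Gfap, -0.37 for Slc1a3 and Gfap, 0.32 for Slc1a3 and Aqp4 and 0.29 for Gfap and Aqp4. No paired analysis was possible because the replicate numbers follow accession order and pair no animals. Counting error was small, since every member had at least 143 counts in each rat, and the number of rats limits what could be detected.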
